A study of Mus musculus with 6 samples.

Results

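The genes described here are 31 members of the basement membrane and of its cell surface receptors, out of 32285 genes counted. They were taken by symbol, by a rule that uses no measured value, though the list was drawn up with earlier results of these data known: the 6 type IV collagen chains *Col4a1* to *Col4a6*, the multiplexin collagens *Col15a1* and *Col18a1*, the laminin chains *Lama1* to *Lama5*, *Lamb1* to *Lamb3*, *Lamc1* and *Lamc3*, the nidogens *Nid1* and *Nid2*, the proteoglycans *Hspg2* and *Agrn*, the collagen binding protein *Sparc*, the integrin chains *Itga1*, *Itga2*, *Itga3*, *Itga5*, *Itga7*, *Itga9* and *Itgb1*, and dystroglycan *Dag1*. They were measured by droplet scRNA-seq of tdTomato+ cells sorted from mouse dorsal skin, with 1 library per mouse and 2 mice per group. WT telogen mice (resting hair follicles, PD20) and WT anagen mice (growing hair follicles, PD32) carried tdTomato;Cdh5-CreERT2;Krt14-H2BGFP on a C57BL/6;CD1 strain. Alk1 KO mice were in telogen at PD25 and carried Alk1 flox/flox;tdTomato;Cdh5-CreERT2 on a C57BL/6 strain. Per the study's methods, mice of all 3 groups received tamoxifen at PD17, 200 µg per g of body weight, so that Cre was active in controls as well. The effect of the *Alk1* deletion therefore cannot be told apart from those of 5 days of age, strain and the Krt14-H2BGFP transgene. Time since tamoxifen also differed, with KO mice taken at PD25 and WT telogen mice at PD20, and cannot be told apart either. The study reports that mice of this KO cross died soon after PD25 with vascular defects. The part of this in the KO values was not tested. It places the change from resting to growing follicles within PD17 to PD25. The study also describes the KO data as a dataset from its authors' earlier work, so an effect of a separate experiment cannot be told apart either. Cre was driven by the promoter of *Cdh5* (VE-cadherin), which is active in ECs. The study found lower *Cdh5* expression in perineurial cells, pericytes and Schwann cells as well. Recombination in fibroblast-like and immune-like cells was not measured. The genotype field of the KO samples reads wild type, against their titles and descriptions, and the titles were followed.

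A basement membrane is a thin sheet of extracellular matrix that lies under endothelium and epithelium and around pericytes, fat, muscle and nerve. Laminins, each made of an alpha, a beta and a gamma chain, form 1 network, and type IV collagens, each a triple helix of alpha chains, form the other. Nidogens and perlecan, the product of *Hspg2*, link the networks, and integrins and dystroglycan hold cells to the laminins. In skin the vessels, the nerve sheath (the perineurium) and the epidermis each have a sheet of their own chain composition. ALK1, encoded by *Acvrl1*, is a receptor of ECs for BMP9 and BMP10 that signals through SMAD proteins.

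*Col4a1* and *Col4a2* encode the chains of the most widespread type IV collagen, and their start sites are shown because at WT telogen these genes were ordered alike over the populations. At anagen the highest mean was in pericyte/vSMC-like cells for *Col4a1* and in capillary-like ECs for *Col4a2*. In the RefSeq annotation of GRCm38.p6 the genes are transcribed away from each other on chromosome 8, *Col4a1* on the minus strand from base 11312826 and *Col4a2* on the plus strand from base 11312805, so that their first 22 bases overlap, and 72.7% of these bases are G or C. The overlap is printed here on the plus strand, with no base in capitals.
Col4a1 and Col4a2 start, chr8:11312805-11312826 (plus): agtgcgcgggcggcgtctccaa
The motif GGCGCC, known as one that SMADs activated by BMP receptors can bind, was searched in the 250 bases before each start. It reads the same on both strands. A promoter sequence was at hand for 23 of the 31 members, and 8 of these 23 (34.8%) held the motif, against 2931 of 27025 genes (10.8%). The motif is made of G and C alone, and the genes were not matched to the members for their G and C content. Whether the shares differ was not tested. *Col4a2*, *Col15a1*, *Col18a1* and *Sparc* had a sequence without the motif. The members without a sequence were *Col4a3*, *Lama1*, *Lama3*, *Lama4*, *Lamc1*, *Lamc3*, *Nid2* and *Itga7*. The first motif of each of the 8 is shown with its flanks, in 30 bases read along the strand of the gene, with the motif in capitals. A match is a description of these letters and not a binding site.
Col4a1, chr8:11313001-11313030 (minus): ctctgctccgtgGGCGCCggactctcggcc
Col4a4, chr1:82587018-82587047 (minus): gagaaaaggttgGGCGCCcgcagagcaggc
Lama5, chr2:180225917-180225946 (minus): gcataaggctcgGGCGCCaggcgggcctgg
Lamb1, chr12:31265138-31265167 (plus): taaaacaaaagaGGCGCCtggggaggtggg
Hspg2, chr4:137468674-137468703 (plus): gctcctgaacttGGCGCCtcgggggcggag
Agrn, chr4:156197695-156197724 (minus): cccagctcggcgGGCGCCgcagtctccggg
Itgb1, chr8:128685499-128685528 (plus): agccgggcggccGGCGCCctcggtggttca
Dag1, chr9:108263872-108263901 (minus): tgaaggctagtcGGCGCCgctccgagtcgg
The site of *Col4a1* lay in an exon of *Col4a2*, that of *Col4a4* in an exon of *Col4a3*, and that of *Dag1* in an exon of another *Dag1* transcript, while the other 5 lay in no annotated gene.

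The 6 libraries held 10615358 to 43317677 UMIs (unique molecular identifiers, 1 per captured mRNA molecule), with the 2 KO libraries the shallowest. After filtering, 20941 cells were kept, 1713 to 5106 per library, with a median of 4371 to 6935 UMIs per cell. Any pair of libraries shared 1 to 8 cell barcodes. Cells were grouped by expression, and populations were called from marker genes, none of them a member, as artery-like, vein-like, capillary-like and lymphatic-like ECs, perineurial-like, pericyte/vSMC-like, fibroblast-like, Schwann-like and immune-like cells. Member UMIs were summed over the cells of each population and library and are given as CPM, the gene's count scaled to the same total of UMIs in every sum. CPM of 3′ tag counts is a share of molecules and is not scaled by transcript length. The smallest sums were those of KO fibroblast-like, pericyte/vSMC-like and perineurial-like cells, with 29 to 88 cells per library, and Schwann-like and proliferating cells were too few in some libraries to be tested. In all ECs together *Acvrl1* measured 156 and 134 CPM in the WT telogen libraries, 139 and 158 CPM in the anagen libraries and 119 and 96.7 CPM in the KO libraries. By population, artery-like ECs held 281 and 239 CPM at telogen and 325.5 and 259 CPM in the KO, where the libraries overlapped, and lymphatic-like ECs 71.0 and 57.8 CPM and 68.2 and 47.5 CPM, which overlapped as well. Vein-like ECs held 119 and 112 CPM and 106 and 104 CPM, and capillary-like ECs 195 and 163 CPM and 116 and 109 CPM, with both KO libraries lower. Lymphatic-like ECs, with the lowest level of the 4, were 17.1% and 12.2% of all cells at telogen and 40.6% and 43.1% in the KO, and the part of this mix in the pooled value was not tested. Outside the ECs, pericyte/vSMC-like cells held 108 and 88.1 CPM at telogen and 15.6 and 46.6 CPM in the KO. Fibroblast-like cells held 36.1 and 42.2 CPM and 25.2 and 19.2 CPM, and immune-like cells 40.7 and 35.5 CPM and 7.62 and 21.2 CPM. Both KO libraries were lower in each. Perineurial-like cells held 17.4 and 11.5 CPM and 11.9 and 0 CPM, which overlapped. A 3′ tag may lie outside the deleted part, so that the *Acvrl1* level does not check the deletion.

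At telogen each family was led by different populations, and 18 of the 31 members had their highest level in a population other than the named ECs. In 23 members both libraries of the highest population lay above both libraries of the next, and 19 members had the same highest population at telogen and at anagen. *Sparc* aside, the most abundant members were *Col4a1* and *Col4a2*. *Col4a1* measured 1732 and 2096 CPM in capillary-like ECs, 1701 and 1638 CPM in pericyte/vSMC-like cells and 1052 and 1138 CPM in perineurial-like cells. *Col4a2* measured 985 and 1124 CPM, 889 and 827 CPM and 541 and 595 CPM in the same populations. Both chains were thus ordered alike over the 8 populations, from capillary-like down to lymphatic-like ECs, and for *Col4a1* the vein-like and fibroblast-like libraries overlapped. The pericyte/vSMC-like sums at telogen were mixed. They held the capillary markers at 13760 and 13850 CPM and the erythroid markers at 8745 and 6562 CPM, beside 8585 and 12510 CPM of their own markers. The part of these in any pericyte/vSMC-like level given here or below was not tested. The chains of the other type IV collagens stood in few populations. *Col4a3* and *Col4a4*, which assemble with *Col4a5* in the filtration barrier of the kidney, were highest in perineurial-like cells, at 31.7 and 33.2 CPM and at 102 and 112 CPM. *Col4a5* was highest in lymphatic-like ECs at 58.4 and 56.2 CPM, and *Col4a6* there measured 2.87 and 3.9 CPM. Immune-like cells, which make little basement membrane, give a rough measure of free RNA in the droplets. Their mean telogen level was 16.9 CPM for *Col4a1*, 6.93 CPM for *Col4a2* and 69.2 CPM for *Sparc*. Their median cell held 13495 and 11166 UMIs at telogen, against 4225 and 3727 in lymphatic-like ECs and 6386 and 5583 in perineurial-like cells. The same free RNA per droplet would thus be a smaller CPM in immune-like cells.

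**Figure D1:**
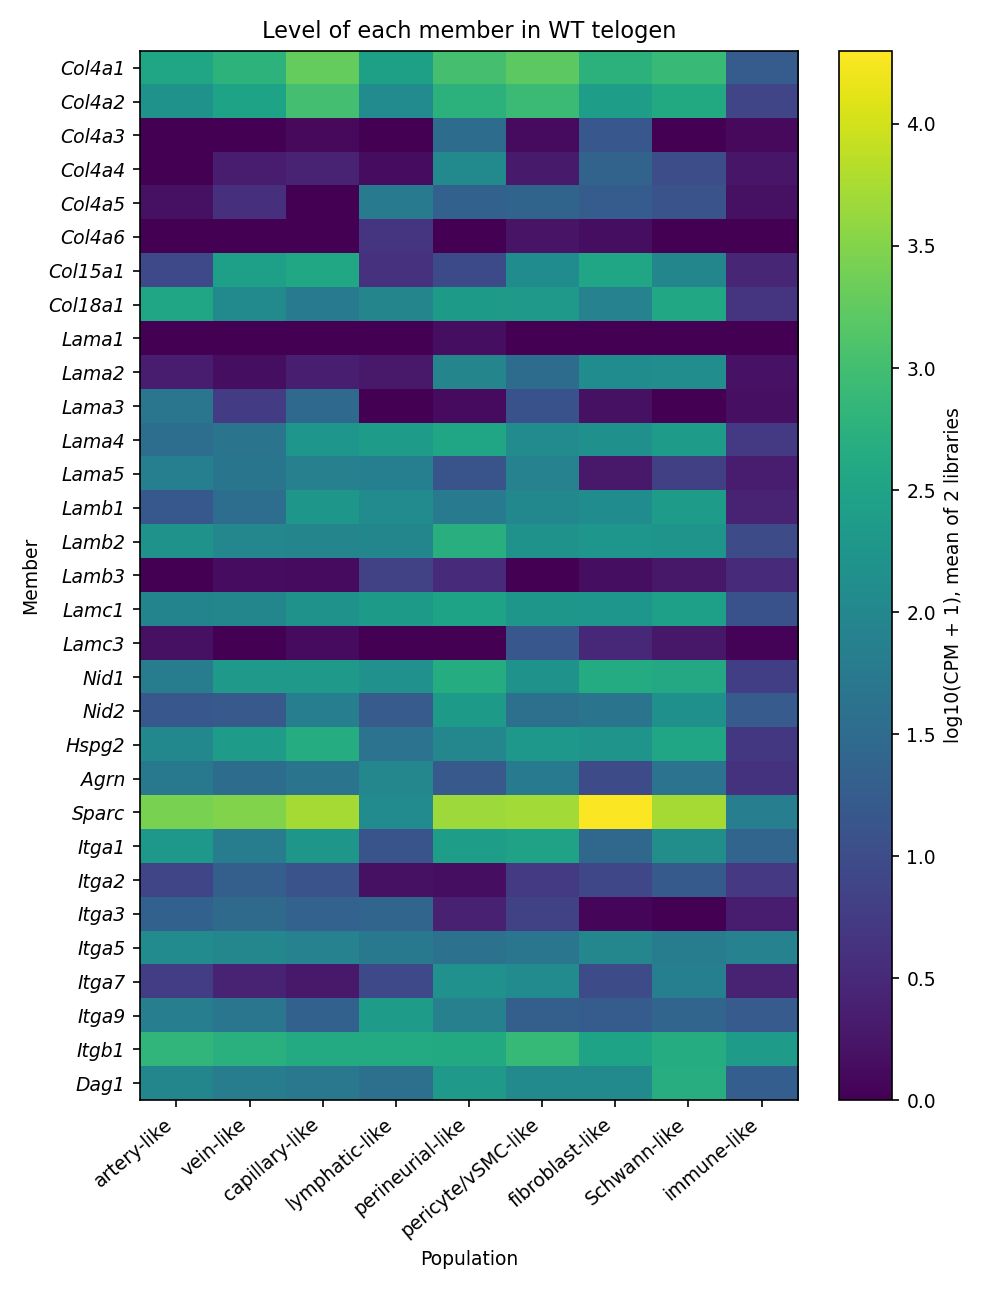
Mean level of each member at WT telogen, as log10(CPM + 1), in 9 populations (columns) and 31 members grouped by role (rows). Each cell is the mean of 2 libraries. Brighter colours are higher levels. The brightest cell is that of *Sparc* in fibroblast-like cells, with 18860 CPM, and the rows of *Col4a3*, *Col4a6*, *Lama1*, *Lamb3* and *Lamc3* are mostly at the dark end.

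The laminin chains divided the populations by their alpha chain. *Lama4*, the alpha chain usual in vessels and nerve, was highest in perineurial-like cells at 344 and 364 CPM, ahead of Schwann-like cells at 236 and 246 CPM and lymphatic-like ECs at 216 and 236 CPM. *Lama5*, which gives the laminin of mature arterial and venous endothelium, measured 59.9 and 101 CPM in pericyte/vSMC-like cells, 64.1 and 80.7 CPM in capillary-like and 62.3 and 82.0 CPM in artery-like ECs, and these populations overlapped. *Lama2*, the chain of muscle and Schwann cells, measured 115 and 139 CPM in Schwann-like and 119.9 and 127 CPM in fibroblast-like cells, which overlapped, and at most 2.28 CPM in the named ECs. The Schwann-like sums at telogen were mixed. They held the fibroblast markers at 11240 and 11640 CPM and the perineurial markers at 4270 and 4338 CPM, beside 11480 and 12120 CPM of the Schwann markers. The part of these in any Schwann-like level given here or below was not tested. *Lama3* was highest in artery-like ECs at 45.9 and 48.9 CPM, and *Lama1* had 6 UMIs in all 6 libraries. Among beta chains, *Lamb2* stood at 499 and 515 CPM in perineurial-like cells, 2.84 times the mean of the next population, and *Lamb1* at 222 and 228 CPM in Schwann-like cells and 183 and 189.7 CPM in capillary-like ECs. *Lamc1*, the gamma chain of most laminins, was highest in perineurial-like cells at 282 and 338 CPM. *Lamb3* and *Lamc3* stayed low, with highest means of 6.15 CPM in lymphatic-like ECs and 13.5 CPM in pericyte/vSMC-like cells. For *Lamb3* the immune-like telogen libraries held 2.8 and 2.03 CPM.

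Of the linkers, *Nid1* measured 458 and 464 CPM in perineurial-like and 396 and 501 CPM in fibroblast-like cells, which overlapped, and *Nid2* was highest in perineurial-like cells at 211 and 221 CPM. *Hspg2* was highest in capillary-like ECs at 422 and 489 CPM, and *Agrn* (agrin, known from the nerve-muscle synapse) in lymphatic-like ECs at 100 and 95.2 CPM. *Col18a1*, whose C-terminal end is endostatin, measured 337 and 383 CPM in Schwann-like cells and 299.7 and 392 CPM in artery-like ECs, which overlapped. *Col15a1* was split in another way, with 296 and 421 CPM in capillary-like ECs and 7.66 and 7.97 CPM in artery-like ECs. Among receptors, *Itgb1*, the beta chain shared by all 6 alpha chains listed, measured 692 and 806 CPM in pericyte/vSMC-like cells and 628 and 706 CPM in artery-like ECs, which overlapped. The collagen receptor chain *Itga1* was highest in pericyte/vSMC-like cells at a mean of 302 CPM, the laminin receptor chain *Itga7* in perineurial-like cells at 151 CPM, and *Itga9*, needed for lymphatic valves, in lymphatic-like ECs at 237 CPM. *Itga5*, the fibronectin receptor chain, was high in immune-like cells as well, at a mean of 78.6 CPM against 116 CPM in artery-like ECs. *Dag1* stood at a mean of 471 CPM in Schwann-like cells, 2.34 times the mean of perineurial-like cells.

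Between telogen and anagen few members moved. The comparison asked how these chains differ between rest and growth of the hair follicle, in the same populations. A member was called when edgeR gave an adjusted p under 0.05 over all genes tested and a fold over 1.3. By this rule 3 of the 29 members tested in any population were called, 1 lower and 2 higher at anagen, of 162 tests of a member in a population, and *Col4a6* and *Lama1* were too low to be tested. In lymphatic-like ECs 2 of 23 members were called, where 1.52% of all genes were (higher, 1.15%, lower, 0.376%). *Col4a5* measured 58.4 and 56.2 CPM at telogen and 26.2 and 26.1 CPM at anagen in these cells (log2 fold change -1.01 ± 0.17 (SE), adjusted p = 0.025). Both anagen libraries lay below both telogen libraries. *Sparc* measured 94.3 and 143 CPM at telogen and 194 and 381 CPM at anagen in these cells (log2 fold change 1.37 ± 0.27 (SE), adjusted p = 0.043). The anagen libraries lay above those of telogen, and in immune-like cells as well, which held 61.8 and 76.6 CPM at telogen and 152 and 189 CPM at anagen. At anagen the median cell held 10517 and 9346 UMIs in immune-like cells, 4624.5 and 3569 in lymphatic-like ECs and 6062 and 4192 in perineurial-like cells. The part of free RNA in the result was not tested. In perineurial-like cells 1 of 25 members was called, where 1.23% of all genes were and 1.05% were higher. *Col15a1* measured 8.32 and 8.45 CPM at telogen and 17.3 and 25.2 CPM at anagen (log2 fold change 1.45 ± 0.26 (SE), adjusted p = 0.037). For this gene too immune-like cells held more at anagen, 2.19 and 1.63 CPM against 10.6 and 9.96 CPM, and its part was not tested. The *Col4a5* call in lymphatic-like cells was lost when 1 library was left out, with adjusted p = 0.066 without telogen S1, range over the alternatives 0.00021 to 0.47. The *Col15a1* call in perineurial-like cells was lost when 1 library was left out, with adjusted p = 0.11 without anagen S2, range over the alternatives 8.9e-06 to 0.16. With DESeq2 the adjusted p of lymphatic-like *Sparc* was 0.07 and *Col4a5* received none.

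In the other 5 populations edgeR called 0 members. The counts of members with an unadjusted p under 0.05 were 1 of 22 in artery-like, 3 of 22 in vein-like and 4 of 22 in capillary-like ECs, 1 of 24 in pericyte/vSMC-like and 4 of 24 in fibroblast-like cells. Of all genes, 0.115%, 0.662%, 0.164%, 0.0462% and 0.367% were called there. DESeq2 called 1 member in capillary-like ECs and 0 in the others. The median log2 fold change of the members was -0.30 in capillary-like ECs and -0.17 in vein-like ECs, against 0.00 and -0.01 over all genes tested. In each population the member with the widest change was as follows, none of them called. In capillary-like ECs it was *Lamb1*, at 183 and 189.7 CPM at telogen and 109 and 89.3 CPM at anagen (log2 fold change -0.79 ± 0.15 (SE), adjusted p = 0.12). For artery-like ECs *Itga9* stood first, at 63.4 and 71.7 CPM and 37.4 and 44.1 CPM (log2 fold change -0.64 ± 0.19 (SE), adjusted p = 0.23). Neither pair of groups overlapped. Vein-like ECs had *Itga2*, a collagen receptor chain, at 10.2 and 27.8 CPM and 10.9 and 4.11 CPM (log2 fold change -1.30 ± 0.53 (SE), adjusted p = 0.32), where the libraries overlapped. Pericyte/vSMC-like cells had *Itga1*, at 302 and 303 CPM and 246 and 171 CPM (log2 fold change -0.49 ± 0.23 (SE), adjusted p = 0.79), with both anagen libraries lower. Fibroblast-like cells had *Col4a2*, at 204 and 310.5 CPM and 430.0 and 339.7 CPM (log2 fold change 0.69 ± 0.23 (SE), adjusted p = 0.26), with both anagen libraries higher.

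In the KO *Sparc*, *Col4a1*, *Col4a2*, *Col15a1* and *Col18a1* were called lower in most of the populations where they could be tested, while most laminin chains and integrins were called in few. The comparison asked how the same chains differ between KO and WT telogen mice, with the same 2 WT telogen libraries as control as above. Of 29 members tested, 25 were called in at least 1 population, 18 of them only as lower, 5 only as higher and 2, *Col4a4* and *Lama5*, in both directions. Of 155 tests of a member in a population, 55 gave a lower call and 8 a higher one. Many genes differed between KO and WT telogen mice, so that each count is set against the share of all genes called. In artery-like ECs 9 of 19 members were called (all genes, 17.0%), 2 higher (7.27%) and 7 lower (9.70%). Vein-like ECs had 6 of 21 called (20.6%), each of them lower (11.3%). Capillary-like ECs had 10 of 22 (31.6%), 1 higher (14.2%) and 9 lower (17.5%). Lymphatic-like ECs had 12 of 22 (24.9%), 1 higher (11.8%) and 11 lower (13.1%). Perineurial-like cells had 9 of 24 (19.7%), 2 higher (9.51%) and 7 lower (10.2%). Pericyte/vSMC-like cells had 6 of 23 (6.29%), each lower (3.49%). Fibroblast-like cells had 11 of 24 (38.8%), 2 higher (17.3%) and 9 lower (21.4%), the population nearest to its background. In each of the 7 populations the share of the tested members called lower was above that of all genes called lower, and this is a description of the members that passed the filter on low counts. The median log2 fold change of the members ran from -0.98 in pericyte/vSMC-like cells to 0.02 in perineurial-like cells, against -0.06 to 0.03 over all genes tested. Populations share their 4 libraries, so that calls in several of them are not independent of each other.

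**Figure D2:**
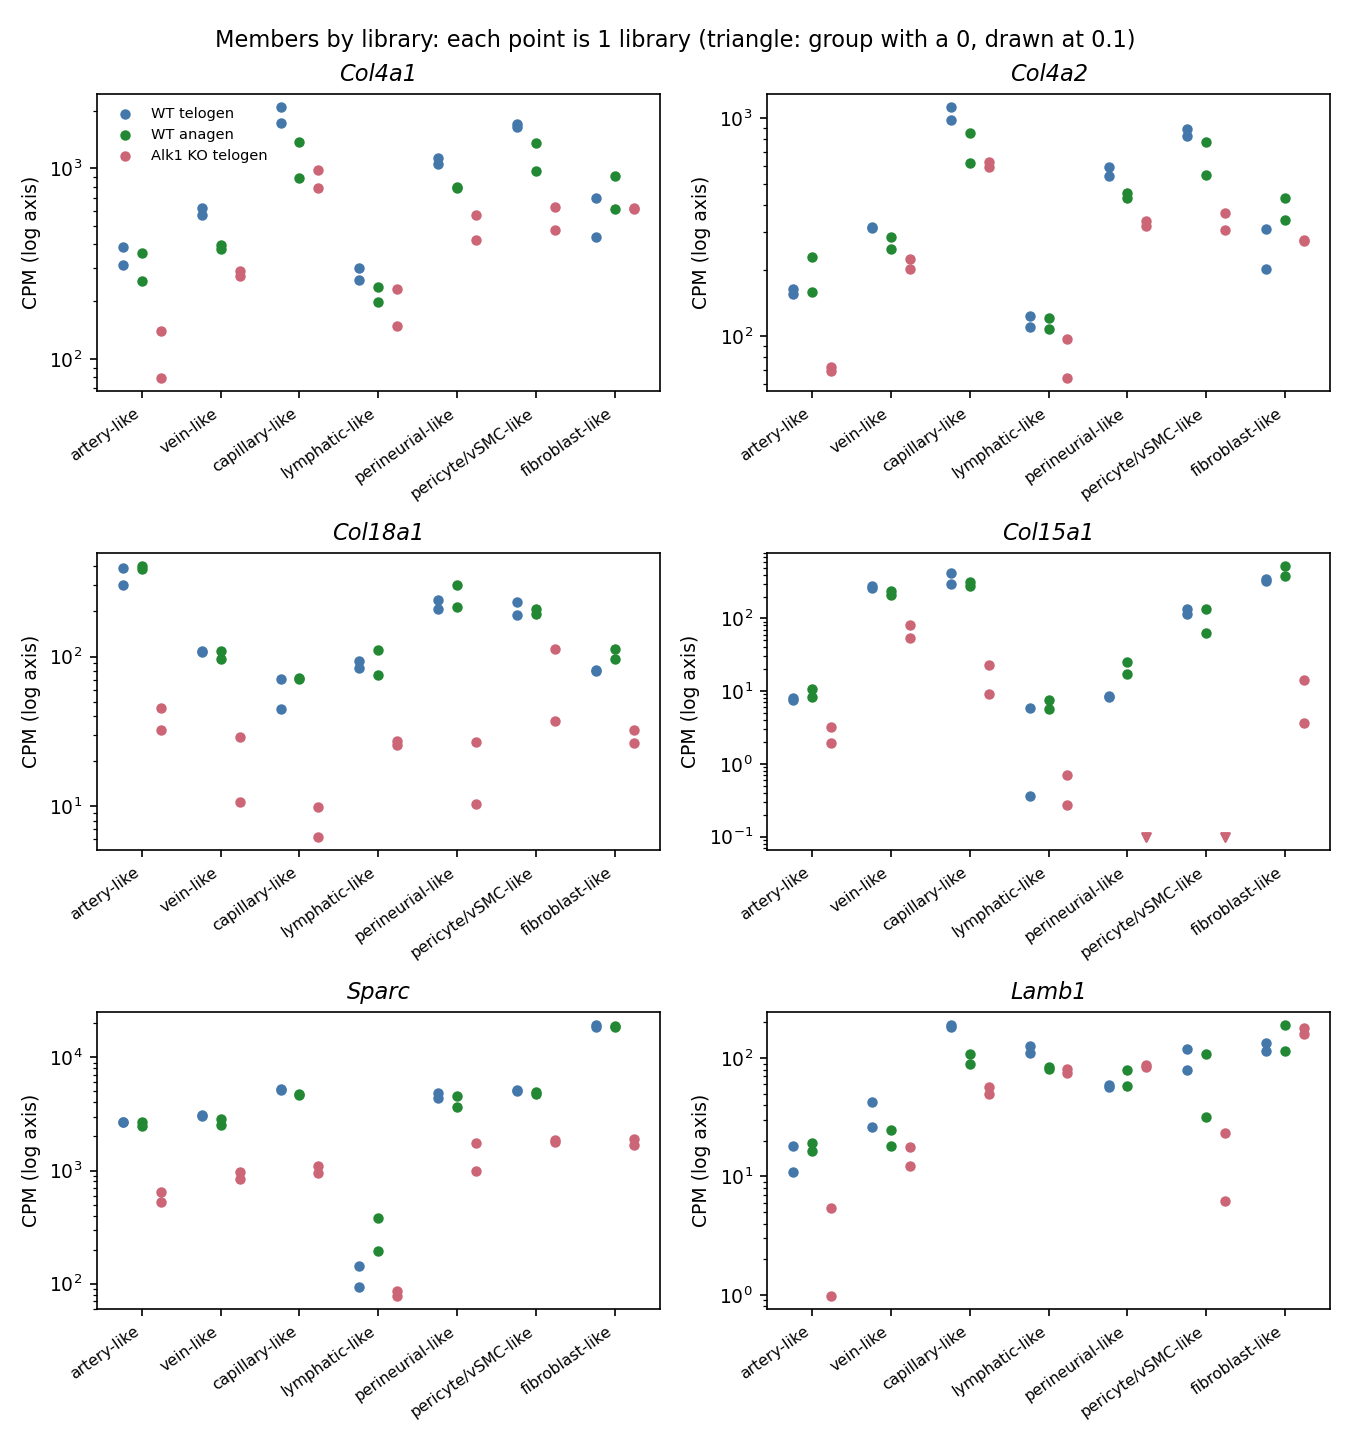
Level of 6 members in each library, in CPM on a log axis, for 7 populations. Each point is 1 library, colours mark WT telogen, WT anagen and Alk1 KO, and triangles mark a group with a library at 0, drawn at the bottom of the axis. For *Sparc* the KO points lie below all WT telogen points of the same population, and for *Col15a1* the KO points of pericyte/vSMC-like and perineurial-like cells are at 0.

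*Col4a1* was called lower in 6 of the 7 populations. In capillary-like ECs, where it was highest, it measured 1732 and 2096 CPM at telogen and 982 and 789 CPM in the KO (log2 fold change -1.21 ± 0.19 (SE), adjusted p = 0.00062). Artery-like ECs held 312 and 387 CPM at telogen and 139.7 and 79.6 CPM in the KO (log2 fold change -1.68 ± 0.23 (SE), adjusted p = 0.00035). Vein-like ECs held 621 and 568 CPM at telogen and 291 and 273 CPM in the KO (log2 fold change -1.09 ± 0.17 (SE), adjusted p = 0.0012). KO libraries were below both telogen libraries in each. In lymphatic-like ECs it measured 299 and 261 CPM at telogen and 149 and 232 CPM in the KO (log2 fold change -0.62 ± 0.19 (SE), adjusted p = 0.037). Perineurial-like cells held 1052 and 1138 CPM at telogen and 567 and 423 CPM in the KO (log2 fold change -1.22 ± 0.23 (SE), adjusted p = 0.0047). Pericyte/vSMC-like cells held 1701 and 1638 CPM at telogen and 473 and 625 CPM in the KO (log2 fold change -1.73 ± 0.26 (SE), adjusted p = 0.018). Again no groups overlapped. In fibroblast-like cells it measured 437 and 699 CPM and 615 and 609 CPM, within the telogen range (log2 fold change -0.22 ± 0.26 (SE), adjusted p = 0.53). Immune-like cells held 15.1 and 18.7 CPM at telogen and 3.81 and 9.77 CPM in the KO. The part of free RNA in these differences was not tested. The *Col4a1* call in lymphatic-like cells was lost when 1 library was left out, with adjusted p = 0.1 without telogen S1 and 0.11 without KO S1, range over the alternatives 3.4e-05 to 0.11. The *Col4a1* call in pericyte/vSMC-like cells was lost when 1 library was left out, with adjusted p = 0.074 without telogen S1, range over the alternatives 2.6e-13 to 0.074. In artery-like ECs clustered with no correction between libraries the log2 fold change was -0.48 and the call was lost.

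*Col4a2*, the partner chain, was lower in the same 6 populations, by less in each. Capillary-like ECs held 985 and 1124 CPM at telogen and 596 and 626 CPM in the KO (log2 fold change -0.89 ± 0.17 (SE), adjusted p = 0.002). Artery-like ECs held 155 and 165 CPM at telogen and 72.0 and 68.8 CPM in the KO (log2 fold change -1.19 ± 0.17 (SE), adjusted p = 0.00042), and vein-like ECs 318 and 314 CPM at telogen and 204 and 227 CPM in the KO (log2 fold change -0.57 ± 0.17 (SE), adjusted p = 0.031). In these ECs both KO libraries lay below both of telogen. For artery-like ECs clustered with no correction between libraries the value turned to 0.15. Lymphatic-like ECs held 124 and 110.1 CPM at telogen and 64.4 and 97.3 CPM in the KO (log2 fold change -0.59 ± 0.18 (SE), adjusted p = 0.039). Perineurial-like cells held 541 and 595 CPM at telogen and 337 and 319.5 CPM in the KO (log2 fold change -0.87 ± 0.20 (SE), adjusted p = 0.014). Pericyte/vSMC-like cells held 889 and 827 CPM at telogen and 305 and 368 CPM in the KO (log2 fold change -1.47 ± 0.26 (SE), adjusted p = 0.022). None of these groups overlapped, while fibroblast-like cells were within the telogen range at 277 and 274 CPM against 204 and 310.5 CPM (adjusted p = 0.49). UMIs of *Col4a1* per UMI of *Col4a2* were 1.76 and 1.86 in capillary-like ECs at telogen and 1.65 and 1.26 in the KO, and 2.41 and 2.37 against 2.31 and 2.38 in lymphatic-like ECs. The *Col4a2* call in vein-like cells was lost when 1 library was left out, with adjusted p = 0.18 without telogen S1, 0.1 without telogen S2 and 0.096 without KO S1, range over the alternatives 0.011 to 0.18. The *Col4a2* call in lymphatic-like cells was lost when 1 library was left out, with adjusted p = 0.13 without telogen S1 and 0.099 without KO S1, range over the alternatives 9.1e-05 to 0.13. The *Col4a2* call in perineurial-like cells was lost when 1 library was left out, with adjusted p = 0.1 without telogen S1 and 0.17 without telogen S2, range over the alternatives 0.00026 to 0.17. The *Col4a2* call in pericyte/vSMC-like cells was lost when 1 library was left out, with adjusted p = 0.18 without telogen S1 and 0.091 without telogen S2, range over the alternatives 3e-08 to 0.18.

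*Col4a3* and *Col4a4* moved the other way in perineurial-like cells. *Col4a4* there measured 102 and 112 CPM at telogen and 254 and 443 CPM in the KO (log2 fold change 1.56 ± 0.23 (SE), adjusted p = 0.0013). *Col4a3* there measured 31.7 and 33.2 CPM at telogen and 68.7 and 77.3 CPM in the KO (log2 fold change 1.07 ± 0.27 (SE), adjusted p = 0.019). Both KO libraries were above both telogen libraries for each chain. *Col4a5* in the same cells was below instead and not called, at 19.0 and 22.7 CPM at telogen and 5.97 and 10.3 CPM in the KO, on 186 and 4 UMIs (log2 fold change -1.54 ± 0.61 (SE), adjusted p = 0.1). In fibroblast-like cells *Col4a4* measured 22.8 and 22.0 CPM at telogen and 3.6 and 2.41 CPM in the KO (log2 fold change -3.25 ± 0.66 (SE), adjusted p = 0.0052), on 2 KO UMIs against 116 at telogen, a ratio of 7.74 with a counting interval of 2.1 to 64.7. *Col4a5* in lymphatic-like ECs measured 58.4 and 56.2 CPM at telogen and 27.7 and 31.4 CPM in the KO (log2 fold change -1.01 ± 0.15 (SE), adjusted p = 0.0013), with both KO libraries below both of telogen. The KO perineurial-like libraries also held other genes at unlike levels. All 3 adipocyte markers were above both telogen libraries, with a sum of 0.52 and 0.201 CPM at telogen and 170.2 and 103 CPM in the KO, and 2 of 3 skeletal muscle markers, 173 and 208 CPM and 3215 and 448 CPM. The sum of the 10 perineurial markers was 15640 and 16760 CPM and 14220 and 15970 CPM, with 3 higher and 5 lower, and none at 0. The 8 fibroblast markers summed to 13200 and 14040 CPM and 8302 and 7879 CPM in these cells, with 7 lower, 1 higher and none at 0. A second, shallower cluster made up 4.2% of the perineurial-like cells at telogen and 18.5% in the KO. The part of these in the member values was not tested. Within the main perineurial-like cluster alone, a setting chosen after seeing the data, *Col4a4* changed by 1.64 and *Col4a3* by 1.17 on the log2 scale, both called. The *Col4a3* call in perineurial-like cells was lost when 1 library was left out, with adjusted p = 0.14 without telogen S1, 0.1 without telogen S2 and 0.08 without KO S1, range over the alternatives 0.011 to 0.14.

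**Figure D3:**
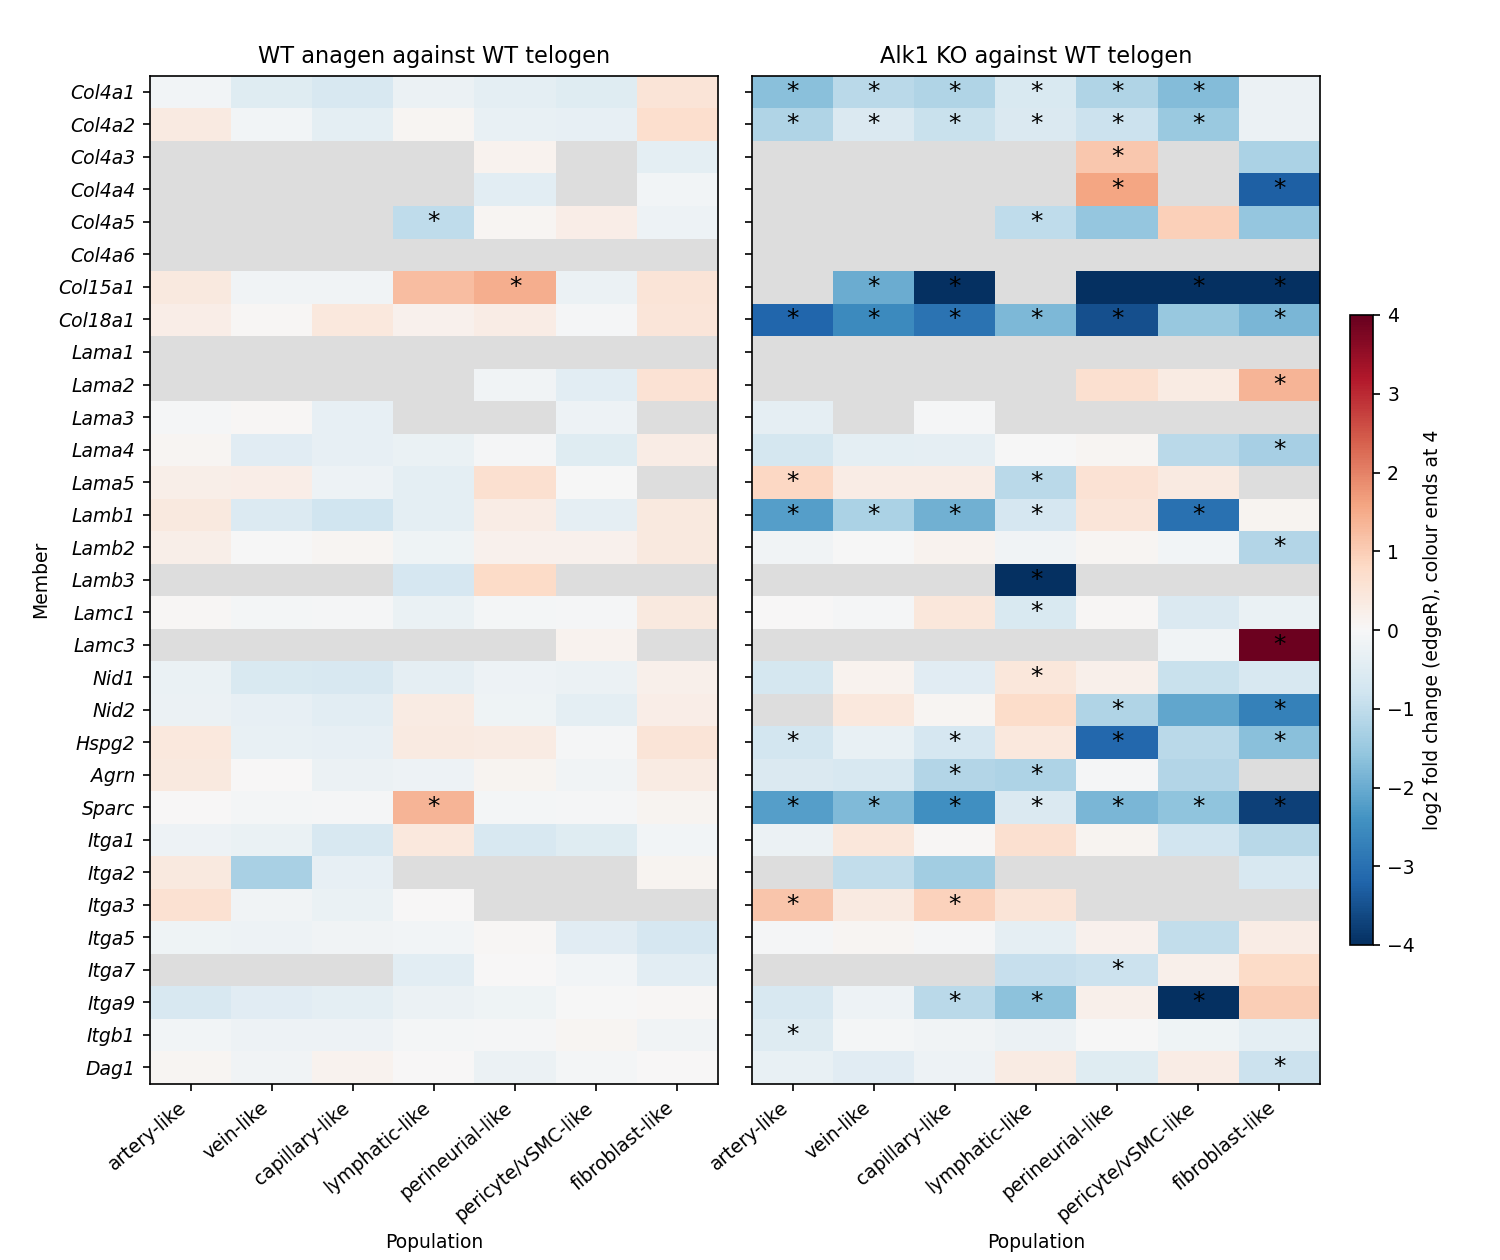
Log2 fold change of the members tested (rows) in 7 populations (columns), anagen against WT telogen and Alk1 KO against WT telogen. Blue is lower and red higher, colours end at 4, a star marks a call, and grey marks a member too low to be tested. The first contrast has 3 stars, and in the second the rows of *Sparc*, *Col4a1*, *Col4a2*, *Col15a1* and *Col18a1* are blue nearly throughout.

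The multiplexin collagens fell in most populations. *Col18a1* was called lower in 6 of 7 populations. In artery-like ECs it measured 299.7 and 392 CPM at telogen and 45.1 and 32.4 CPM in the KO (log2 fold change -3.16 ± 0.22 (SE), adjusted p = 6.7e-06). Vein-like ECs held 107 and 109 CPM at telogen and 10.7 and 28.9 CPM in the KO (log2 fold change -2.55 ± 0.32 (SE), adjusted p = 0.00043). Capillary-like ECs held 70.9 and 44.8 CPM at telogen and 6.27 and 9.95 CPM in the KO (log2 fold change -2.95 ± 0.34 (SE), adjusted p = 5.9e-05). Each KO library was thus several times below its telogen counterparts. Lymphatic-like ECs held 93.2 and 84.3 CPM at telogen and 27.4 and 25.6 CPM in the KO (log2 fold change -1.80 ± 0.15 (SE), adjusted p = 5.4e-05). Perineurial-like cells held 207 and 239 CPM at telogen and 26.9 and 10.3 CPM in the KO (log2 fold change -3.51 ± 0.34 (SE), adjusted p = 0.00017). Fibroblast-like cells held 79.5 and 81.2 CPM at telogen and 32.4 and 26.5 CPM in the KO (log2 fold change -1.81 ± 0.30 (SE), adjusted p = 0.0019). No groups overlapped in any of them, nor in pericyte/vSMC-like cells, which missed the threshold at 189 and 230.1 CPM and 112 and 37.3 CPM (log2 fold change -1.51 ± 0.43 (SE), adjusted p = 0.072).

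*Col15a1* was called lower in 4 of the 5 populations where it could be tested. In capillary-like ECs it measured 296 and 421 CPM at telogen and 22.6 and 9.23 CPM in the KO (log2 fold change -4.56 ± 0.31 (SE), adjusted p = 2.2e-06). Vein-like ECs held 276 and 258 CPM at telogen and 79.9 and 53.3 CPM in the KO (log2 fold change -1.996 ± 0.21 (SE), adjusted p = 0.00014). Fibroblast-like cells held 349.5 and 323 CPM at telogen and 3.6 and 14.4 CPM in the KO (log2 fold change -5.41 ± 0.39 (SE), adjusted p = 6.2e-05). The capillary-like and fibroblast-like levels were the highest at telogen, and in the KO both fell to a small part of it. In pericyte/vSMC-like cells it measured 134 and 114 CPM at telogen, 335 UMIs, and no UMI was found in either KO library (adjusted p = 0.0079). Against a floor of 3 UMIs over both KO libraries this is at least 22.1-fold lower. In perineurial-like cells 74 UMIs at telogen stood against 0 in the KO, at least 1.48-fold lower by the same floor, and the test missed the threshold (adjusted p = 0.062).

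Marker values moved beside these falls. In pericyte/vSMC-like cells 6 of 7 endothelial markers and 8 of 8 capillary markers were below both telogen libraries in the KO. Their sums were 2887 and 2243 CPM at telogen and 585 and 1692 CPM in the KO for the endothelial list, and 13760 and 13850 CPM and 4746 and 5930 CPM for the capillary list, with none at 0. The median pericyte/vSMC-like cell held 28 and 18 UMIs of the endothelial markers at telogen and 1 and 1 in the KO. Their own 10 markers summed to 8585 and 12510 CPM and 15660 and 9622 CPM. In fibroblast-like cells 5 of the 8 fibroblast markers were lower and 2 higher in the KO, with sums of 70140 and 63880 CPM and 23670 and 15870 CPM and none at 0, and the median UMIs per cell were 17229.5 and 16199 at telogen and 9007 and 6255 in the KO. In capillary-like ECs the 8 capillary markers summed to 26070 and 33350 CPM and 17130 and 13250 CPM, with 5 lower and 2 higher. The 5 erythroid markers, summed over pericyte/vSMC-like cells, stood at 8745 and 6562 CPM at telogen and 37.3 and 18.6 CPM in the KO, each of them lower. In artery-like ECs the 9 artery markers summed to 5239 and 5659 CPM and 3127 and 3041 CPM, with 5 lower and 1 higher, and the 8 fibroblast markers to 219.8 and 267.5 CPM and 45.1 and 41.3 CPM, with 7 lower. In lymphatic-like ECs the 6 lymphatic markers summed to 2668 and 2515 CPM and 5049 and 5217 CPM, with 4 higher and 1 lower. None of these markers was at 0 throughout. The clusters inside the blood EC populations shifted too. The larger artery-like cluster at telogen held 52.5% of the cells then and 39.1% in the KO, the larger vein-like cluster 58.7% and 48.4%, and of the capillary-like clusters 1 went from 13.2% to 23.5% and another from 26.4% to 16.6%. Values within them were not computed. The part of any of these in the member values was not tested.

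*Sparc*, which binds collagen and is made by cells that lay down matrix, was the only member called lower in all 7 populations. In fibroblast-like cells, where it was highest, it measured 19320 and 18400 CPM at telogen and 1892 and 1682 CPM in the KO (log2 fold change -3.73 ± 0.27 (SE), adjusted p = 6.2e-05). Capillary-like ECs held 5154 and 5243 CPM at telogen and 946 and 1085 CPM in the KO (log2 fold change -2.46 ± 0.18 (SE), adjusted p = 3e-06). Artery-like ECs held 2677 and 2700 CPM at telogen and 652 and 529.7 CPM in the KO (log2 fold change -2.19 ± 0.16 (SE), adjusted p = 6.8e-06). In each of these 3 populations both KO libraries lay far below both telogen libraries. Vein-like ECs held 3107 and 3056 CPM at telogen and 848 and 979.6 CPM in the KO (log2 fold change -1.77 ± 0.15 (SE), adjusted p = 3.6e-05). Perineurial-like cells held 4350 and 4861 CPM at telogen and 1740 and 995 CPM in the KO (log2 fold change -1.82 ± 0.28 (SE), adjusted p = 0.0019). Pericyte/vSMC-like cells held 5198 and 5012 CPM at telogen and 1771 and 1874 CPM in the KO (log2 fold change -1.60 ± 0.27 (SE), adjusted p = 0.02). In lymphatic-like ECs it measured 94.3 and 143 CPM at telogen and 86.7 and 78.2 CPM in the KO (log2 fold change -0.58 ± 0.18 (SE), adjusted p = 0.042). The immune-like level was 61.8 and 76.6 CPM at telogen and 11.4 and 23.6 CPM in the KO. As CPM it lay below that of the cells in every library, with the smallest ratios at telogen. The median immune-like cell was deeper, however, with 13495 and 11166 UMIs at telogen against 4225 and 3727 in lymphatic-like ECs. In the KO it held 6740.5 and 8034 against 4692 and 4726. These CPM therefore do not compare free RNA per droplet, and the part of free RNA was not tested. The *Sparc* call in lymphatic-like cells was lost when 1 library was left out, with adjusted p = 0.39 without telogen S2, range over the alternatives 0.0018 to 0.39. The *Sparc* call in pericyte/vSMC-like cells was lost when 1 library was left out, with adjusted p = 0.15 without telogen S1 and 0.072 without telogen S2, range over the alternatives 3.2e-14 to 0.15.

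Laminin alpha chains moved in opposite directions. *Lama5* was higher in artery-like ECs, at 62.3 and 82.0 CPM at telogen and 111 and 144 CPM in the KO (log2 fold change 0.82 ± 0.20 (SE), adjusted p = 0.014), and lower in lymphatic-like ECs, at 65.2 and 76.9 CPM at telogen and 33.4 and 36.1 CPM in the KO (log2 fold change -1.09 ± 0.15 (SE), adjusted p = 0.00081). No groups overlapped in either. In vein-like and capillary-like ECs it was 0.31 and 0.31 on the log2 scale, with adjusted p = 0.35 and 0.21. *Lama2* was higher in fibroblast-like cells, at 119.9 and 127 CPM at telogen and 449.6 and 346 CPM in the KO (log2 fold change 1.35 ± 0.23 (SE), adjusted p = 0.0025). *Lama4* was lower in the same cells, at 114 and 167 CPM at telogen and 82.7 and 60.1 CPM in the KO (log2 fold change -1.34 ± 0.30 (SE), adjusted p = 0.0086). Where *Lama4* was highest it was not called, at 344 and 364 CPM and 394 and 402 CPM in perineurial-like cells (log2 fold change 0.08 ± 0.20 (SE), adjusted p = 0.82). *Lama3* was tested in artery-like and capillary-like ECs and not called. The *Lama5* call in artery-like cells was lost when 1 library was left out, with adjusted p = 0.13 without telogen S1, range over the alternatives 8.6e-05 to 0.13.

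Of the beta and gamma chains, *Lamb1* was called lower in 5 of 7 populations. In capillary-like ECs it measured 183 and 189.7 CPM at telogen and 49.5 and 56.8 CPM in the KO (log2 fold change -1.92 ± 0.17 (SE), adjusted p = 9.2e-06). Artery-like ECs held 10.9 and 18.2 CPM at telogen and 5.37 and 0.983 CPM in the KO (log2 fold change -2.19 ± 0.66 (SE), adjusted p = 0.037), and vein-like ECs 43.0 and 26.1 CPM at telogen and 12.2 and 17.8 CPM in the KO (log2 fold change -1.26 ± 0.37 (SE), adjusted p = 0.033). Lymphatic-like ECs held 110.0 and 127 CPM at telogen and 75.0 and 80.3 CPM in the KO (log2 fold change -0.67 ± 0.13 (SE), adjusted p = 0.0048). Pericyte/vSMC-like cells held 118 and 79.5 CPM at telogen and 6.22 and 23.3 CPM in the KO (log2 fold change -2.99 ± 0.54 (SE), adjusted p = 0.023). The KO libraries were below both telogen libraries in all 5, whereas perineurial-like cells were above, uncalled, at 56.7 and 59.5 CPM and 83.6 and 87.6 CPM (log2 fold change 0.47 ± 0.23 (SE), adjusted p = 0.18). *Lamb2* was called in fibroblast-like cells, as lower, at 159.5 and 197 CPM at telogen and 126 and 79.4 CPM in the KO (log2 fold change -1.16 ± 0.28 (SE), adjusted p = 0.012), and in none of the other 6 populations, with a lower estimate in 5 of the 7. In perineurial-like cells, where it was highest, it measured 603 and 526 CPM in the KO (adjusted p = 0.83). *Lamb3*, a chain of epithelial laminin, measured 6.45 and 5.85 CPM in lymphatic-like ECs at telogen, 33 UMIs, and no UMI was found in the KO, at least 16.4-fold lower (adjusted p = 0.00072). *Lamc1* was lower in lymphatic-like ECs, at 194 and 242 CPM at telogen and 133 and 163 CPM in the KO (log2 fold change -0.62 ± 0.15 (SE), adjusted p = 0.014). *Lamc3* was higher in fibroblast-like cells, at 4.3 and 0 CPM at telogen and 21.6 and 52.9 CPM in the KO (log2 fold change 3.93 ± 0.89 (SE), adjusted p = 0.0085). The *Lamb1* call in artery-like cells was lost when 1 library was left out, with adjusted p = 0.12 without telogen S1, 0.43 without telogen S2 and 0.25 without KO S2, range over the alternatives 0.0094 to 0.43. The *Lamb1* call in vein-like cells was lost when 1 library was left out, with adjusted p = 0.33 without telogen S1 and 0.091 without KO S1, range over the alternatives 0.0024 to 0.41. The *Lamb2* call in fibroblast-like cells was lost when 1 library was left out, with adjusted p = 0.053 without telogen S2, range over the alternatives 4.2e-05 to 0.053. The *Lamc1* call in lymphatic-like cells was lost when 1 library was left out, with adjusted p = 0.089 without telogen S2, range over the alternatives 0.00046 to 0.14. The *Lamc3* call in fibroblast-like cells was lost when 1 library was left out, with adjusted p = 0.15 without KO S2, range over the alternatives 9.1e-09 to 0.15.

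*Hspg2* was called lower in 4 of 7 populations, and the other linkers in 1 or 2 each. In perineurial-like cells *Hspg2* measured 84.7 and 106 CPM at telogen and 11.9 and 10.3 CPM in the KO (log2 fold change -3.15 ± 0.41 (SE), adjusted p = 0.00074). Capillary-like ECs held 422 and 489 CPM at telogen and 298 and 317 CPM in the KO (log2 fold change -0.67 ± 0.17 (SE), adjusted p = 0.0099). Artery-like ECs held 95.2 and 105 CPM at telogen and 67.7 and 54.0 CPM in the KO (log2 fold change -0.72 ± 0.20 (SE), adjusted p = 0.027), and fibroblast-like cells 162 and 177 CPM at telogen and 101 and 40.9 CPM in the KO (log2 fold change -1.66 ± 0.37 (SE), adjusted p = 0.0076). The fall was thus widest in perineurial-like cells, and no groups overlapped in the 4. In the KO perineurial-like libraries 3 UMIs make 8.96 and 15.5 CPM, so the *Hspg2* values there rest on few UMIs. *Nid2* was lower in perineurial-like cells, at 211 and 221 CPM at telogen and 110.5 and 82.5 CPM in the KO (log2 fold change -1.20 ± 0.23 (SE), adjusted p = 0.0051), and in fibroblast-like cells, at 39.1 and 50.9 CPM at telogen and 7.19 and 9.62 CPM in the KO (log2 fold change -2.72 ± 0.46 (SE), adjusted p = 0.0022). *Nid1* was higher in lymphatic-like ECs, at 149 and 143 CPM at telogen and 191 and 227 CPM in the KO (log2 fold change 0.46 ± 0.13 (SE), adjusted p = 0.026). *Agrn* was lower in lymphatic-like ECs, at 100 and 95.2 CPM at telogen and 37.8 and 47.7 CPM in the KO (log2 fold change -1.25 ± 0.15 (SE), adjusted p = 0.00039), and in capillary-like ECs, at 31.8 and 55.2 CPM at telogen and 26.3 and 14.2 CPM in the KO (log2 fold change -1.17 ± 0.34 (SE), adjusted p = 0.021). No groups overlapped for these either. The *Hspg2* call in artery-like cells was lost when 1 library was left out, with adjusted p = 0.13 without telogen S2 and 0.13 without KO S2, range over the alternatives 0.004 to 0.47. The *Hspg2* call in capillary-like cells was lost when 1 library was left out, with adjusted p = 0.11 without telogen S2, range over the alternatives 0.0035 to 0.11. The *Nid1* call in lymphatic-like cells was lost when 1 library was left out, with adjusted p = 0.077 without telogen S1, 0.14 without telogen S2 and 0.072 without KO S2, range over the alternatives 0.0043 to 0.39. The *Agrn* call in capillary-like cells was lost when 1 library was left out, with adjusted p = 0.15 without telogen S2 and 0.071 without KO S2, range over the alternatives 0.00025 to 0.15.

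Among receptors, *Itga9* was called lower in 3 populations. In lymphatic-like ECs it measured 196 and 277 CPM at telogen and 79.9 and 76.4 CPM in the KO (log2 fold change -1.66 ± 0.16 (SE), adjusted p = 0.00014), and in capillary-like ECs 19.6 and 22.1 CPM at telogen and 12.5 and 8.52 CPM in the KO (log2 fold change -1.06 ± 0.35 (SE), adjusted p = 0.035). In pericyte/vSMC-like cells it measured 17.7 and 19.9 CPM at telogen, 51 UMIs, and no UMI was found in the KO, at least 3.36-fold lower (adjusted p = 0.042). The lymphatic-like fall was the clearest of these, from the population with the highest level. *Itga3*, a laminin receptor chain, was higher in artery-like ECs, at 18.6 and 22.8 CPM at telogen and 48.3 and 41.3 CPM in the KO (log2 fold change 1.11 ± 0.31 (SE), adjusted p = 0.026), and in capillary-like ECs, at 22.0 and 21.4 CPM at telogen and 32.6 and 57.5 CPM in the KO (log2 fold change 0.93 ± 0.29 (SE), adjusted p = 0.027). *Itga7* was lower in perineurial-like cells, at 147 and 154 CPM at telogen and 77.6 and 103 CPM in the KO (log2 fold change -0.86 ± 0.22 (SE), adjusted p = 0.021). *Itgb1* was lower in artery-like ECs, at 628 and 706 CPM at telogen and 449 and 480.5 CPM in the KO (log2 fold change -0.52 ± 0.15 (SE), adjusted p = 0.035), and in pericyte/vSMC-like cells, where it was highest, it measured 697 and 727 CPM in the KO (adjusted p = 0.67). *Dag1* was lower in fibroblast-like cells, at 101 and 123 CPM at telogen and 75.5 and 79.4 CPM in the KO (log2 fold change -0.87 ± 0.25 (SE), adjusted p = 0.022). No groups of these calls overlapped. *Itga1*, *Itga2* and *Itga5* were tested and called in no population. The *Itga9* call in capillary-like cells was lost when 1 library was left out, with adjusted p = 0.083 without telogen S1, 0.14 without telogen S2 and 0.11 without KO S2, range over the alternatives 0.019 to 0.46. The *Itga9* call in pericyte/vSMC-like cells was lost when 1 library was left out, with adjusted p = 0.07 without KO S1, range over the alternatives 0.0016 to 0.07. The *Itga3* call in artery-like cells was lost when 1 library was left out, with adjusted p = 0.13 without telogen S1, range over the alternatives 0.0069 to 0.18. The *Itga3* call in capillary-like cells was lost when 1 library was left out, with adjusted p = 0.051 without telogen S1, 0.063 without telogen S2 and 0.18 without KO S2, range over the alternatives 0.002 to 0.18. The *Itga7* call in perineurial-like cells was lost when 1 library was left out, with adjusted p = 0.091 without telogen S1 and 0.14 without telogen S2, range over the alternatives 0.0029 to 0.14. The *Itgb1* call in artery-like cells was lost when 1 library was left out, with adjusted p = 0.064 without telogen S1, 0.22 without telogen S2 and 0.063 without KO S1, range over the alternatives 0.021 to 0.22. The *Dag1* call in fibroblast-like cells was lost when 1 library was left out, with adjusted p = 0.059 without telogen S1, 0.17 without telogen S2 and 0.05 without KO S2, range over the alternatives 0.0039 to 0.17.

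The share of each chain among the UMIs of its kind was also taken, per library, as a description. In artery-like ECs *Lama5* was 43.8% and 48.6% of laminin alpha UMIs at telogen, 48.9% and 52.2% at anagen and 71.5% and 65.6% in the KO. In lymphatic-like ECs *Lama4* was 76.6% and 75.1% at telogen and 86.8% and 87.2% in the KO. Fibroblast-like cells shifted most, with *Lama2* at 51.1% and 42.9% at telogen and 83.3% and 85.2% in the KO. Perineurial-like cells kept *Lama4* as their main alpha chain, at 76.7% and 78.3% at telogen and 65.3% and 78.8% in the KO. Among beta chains in capillary-like ECs, *Lamb1* was 67.0% and 67.9% at telogen, 54.9% and 51.2% at anagen and 34.2% and 32.7% in the KO, so that the 3 groups did not overlap. Among type IV collagen UMIs of perineurial-like cells, *Col4a4* was 5.82% and 5.89% at telogen and 20.6% and 34.8% in the KO. In lymphatic-like ECs *Col4a5* was 12.1% and 13.0% at telogen, 6.77% and 7.79% at anagen and 11.4% and 8.68% in the KO. Among the integrin alpha chains listed, *Itga9* was 65.8% and 73.9% of lymphatic-like UMIs at telogen and 43.0% and 41.9% in the KO. The perineurial-like and fibroblast-like KO shares rest on few cells, as given above.

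**Figure D4:**
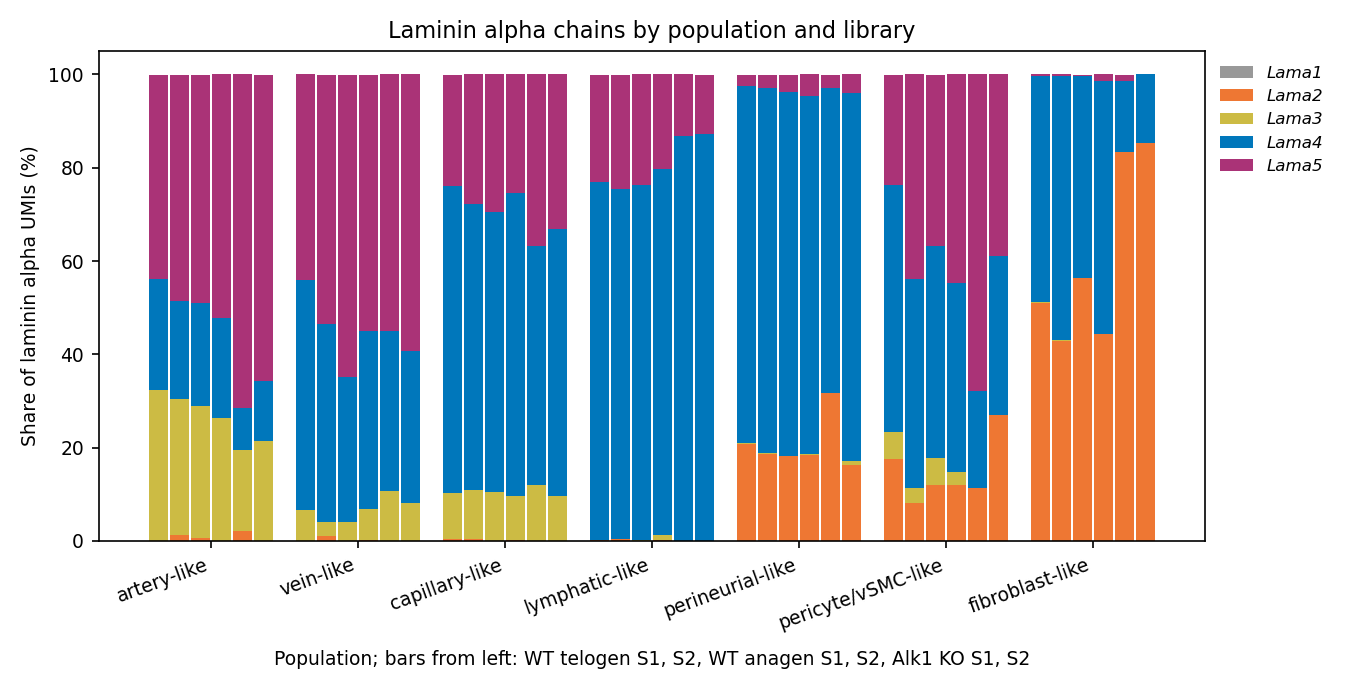
Share of each laminin alpha chain among the laminin alpha UMIs of a population, in percent, with 1 stacked bar per library. *Lama5* leads in artery-like and *Lama4* in lymphatic-like and perineurial-like bars. In the KO bars of fibroblast-like cells *Lama2* takes 83.3% and 85.2%.

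Lymphatic-like ECs were made of clusters whose shares differed between groups, so the KO values were taken again within the largest pair of clusters, a setting chosen after seeing the data. A cluster led by *Cldn11* and *Gdf10* held 59.4% of the lymphatic-like cells at WT telogen and 36.6% in the KO, and a cluster led by *Lyve1* and *Ccl21a* held 27.4% and 56.7%. Of the 12 members called in the whole population, 9 were called within the first and 5 within the second. *Col4a1* changed by -1.44 and -0.87 on the log2 scale within the clusters, both wider than the -0.62 of the whole, and *Lamb1* by -1.34 and -1.04, against -0.67. *Col18a1* changed by -2.33 and -2.22, *Itga9* by -1.53 and -1.14 and *Sparc* by -1.74 and -1.34, all called in both clusters. *Col4a5* and *Agrn* changed by -1.77 and -2.03 in the first, both called, and by -0.10 (adjusted p = 0.86) and -0.74 (adjusted p = 0.065) in the second. Whether the clusters differ in these was not tested. *Lama5* was -0.51 in the first (adjusted p = 0.059) and turned to 0.85 in the second (adjusted p = 0.38), and *Nid1* turned to -0.21 in the first (adjusted p = 0.39) and was 0.52 in the second (adjusted p = 0.069), so that neither call was held by a cluster. The *Lamc1* call was not held either, at -0.47 (adjusted p = 0.073) and -0.43 (adjusted p = 0.14). *Lamb3* was called in the first and too low to be tested in the second.

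**Figure D5:**
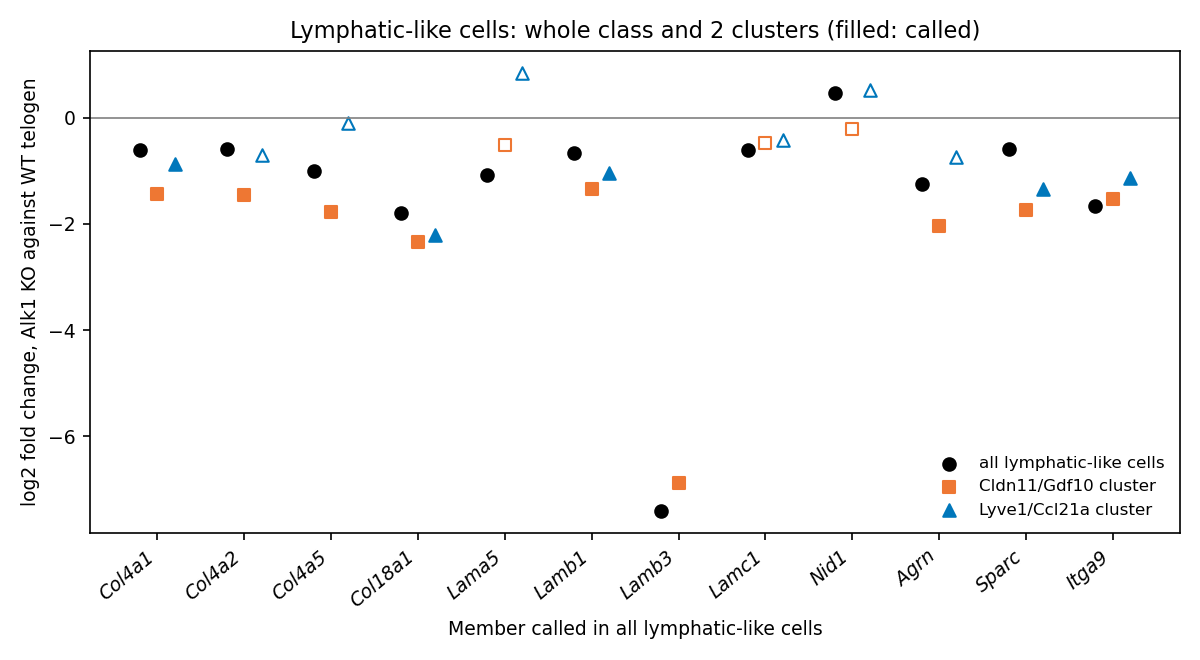
Log2 fold change, Alk1 KO against WT telogen, of the 12 members called in lymphatic-like ECs, in the whole population and within the *Cldn11*/*Gdf10* and *Lyve1*/*Ccl21a* clusters. Filled points are called. *Lama5* and *Nid1* lie on both sides of 0, and the fitted value of *Lamb3*, with 0 UMIs in the KO, is no bound.

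Whether populations differed in their response was tested as the difference of 2 log2 fold changes, each against that of capillary-like ECs. For the KO 8 of 25 members differed between lymphatic-like and capillary-like ECs, where 21.2% of all genes did, and 6 of 27 between perineurial-like cells and capillary-like ECs, where 7.70% did. The log2 fold change of *Sparc* was higher than in capillary-like ECs by 1.88 in lymphatic-like ECs and by 0.64 in perineurial-like cells, and that of *Lamb1* by 1.23 and 2.42. Lymphatic-like ECs held less *Sparc* at telogen than the other tested populations, and the part of free RNA in their difference was not tested. *Hspg2* differed in opposite directions, 1.06 for lymphatic-like ECs and -2.43 for perineurial-like cells, the latter on few KO UMIs. For anagen against telogen 2 of 28 members differed between perineurial-like cells and capillary-like ECs, where 0.682% of genes did. *Col15a1* differed by 1.60 and *Lamb1* by 1.09. Between lymphatic-like and capillary-like ECs edgeR found 0 of 25 at 0.207% of genes, with 7 at an unadjusted p under 0.05, and DESeq2 found 0. The difference of *Sparc* for perineurial-like cells was lost when 1 library was left out, with adjusted p = 0.56 without telogen S1, 0.18 without telogen S2 and 1.0 without KO S1, range over the alternatives 9.8e-14 to 1.0. The widest differences were in members with few UMIs, none of them called. They were *Lama3* (5.25 ± 1.96, SE) for lymphatic-like ECs at anagen, *Lama2* for perineurial-like cells at anagen (2.46 ± 0.90) and in the KO (5.02 ± 1.97), and *Lamb3* for lymphatic-like ECs in the KO, whose error could not be estimated with 0 UMIs in either KO population.

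Genes that work with the members were counted from 2 lists. Of 34 other basement membrane and receptor genes, 12 to 22 could be tested per population in the KO contrast. Calls were 1 higher and 2 lower of 14 in artery-like, 1 and 4 of 12 in vein-like, 0 and 3 of 14 in capillary-like and 3 and 7 of 20 in lymphatic-like ECs, 2 and 0 of 22 in perineurial-like, 1 and 2 of 18 in pericyte/vSMC-like and 3 and 8 of 20 in fibroblast-like cells. Of all genes 17.0%, 20.6%, 31.6%, 24.9%, 19.7%, 6.29% and 38.8% were called in these populations in turn, so that the share of the list was below that of all genes in capillary-like ECs and perineurial-like cells and above it in the other 5. DESeq2 called 1, 4, 2, 8, 2, 3 and 4 genes of the list in the same order. The integrin chain *Itgb3* rose in artery-like (2.13 ± 0.37 on the log2 scale, SE), vein-like (3.12 ± 0.40) and lymphatic-like ECs (1.84 ± 0.18), and the hemidesmosome chain *Itgb4* fell in vein-like (-1.34 ± 0.21) and lymphatic-like ECs (-1.60 ± 0.13). In capillary-like ECs the laminin receptors *Bcam* (-1.30 ± 0.17) and *Itga6* (-0.85 ± 0.17) fell. *Ntn4*, a netrin of basement membranes, rose in perineurial-like (1.74 ± 0.22) and pericyte/vSMC-like cells (3.15 ± 0.31). At anagen edgeR called 0 genes of the list in artery-like, vein-like, capillary-like, pericyte/vSMC-like and fibroblast-like cells, with 2, 4, 6, 1 and 7 at an unadjusted p under 0.05, and DESeq2 called 0, 0, 1, 0 and 0. There was 1 lower of 17 in lymphatic-like ECs (*Itgb8*, -1.44 ± 0.26), where 0.376% of all genes were lower. Perineurial-like cells had 3 higher of 24 (*Bcam*, 0.97 ± 0.13, *Smoc2*, 0.86 ± 0.12, and *Tinagl1*, 1.04 ± 0.19), where 1.05% of all genes were higher. DESeq2 called 1 gene of the list in lymphatic-like ECs and 2 in perineurial-like cells.

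The other list held 17 genes of collagen folding and crosslinking, all of them enzymes or chaperones that act on collagen chains. In the KO it had 0 higher and 3 lower calls of 12 in artery-like, 0 and 3 of 14 in vein-like, 0 and 4 of 12 in capillary-like and 1 and 5 of 15 in lymphatic-like ECs, 2 and 5 of 17 in perineurial-like, 0 and 2 of 15 in pericyte/vSMC-like and 1 and 14 of 16 in fibroblast-like cells. Against the shares of all genes given for the other list, those of vein-like and capillary-like ECs were near the background and that of fibroblast-like cells was far above it. DESeq2 called 2, 2, 3, 4, 4, 3 and 14. *Serpinh1*, the collagen chaperone HSP47, was lower in all 7 populations, from -0.92 ± 0.17 on the log2 scale (SE) in vein-like ECs to -4.01 ± 0.25 in fibroblast-like cells, and *Ppib*, a prolyl isomerase named after its values were seen, in all 7 as well, from -0.44 ± 0.11 in lymphatic-like ECs to -3.40 ± 0.26 in fibroblast-like cells. The list's median in fibroblast-like cells was -2.69. At anagen edgeR called 0 genes of it in each of the 7 populations, with 3, 4, 2, 3, 3, 0 and 4 at an unadjusted p under 0.05 in the order above, and DESeq2 called 0, 0, 0, 0, 0, 0 and 0.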

How the data were processed

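The authors made Chromium 3′ v3 libraries, sequenced them on a NextSeq-500 and counted UMIs with Cell Ranger 6.0.1 on mm10. What they deposited is a table of raw UMI counts per library, 32285 genes by barcodes, neither normalized nor pooled. The later Seurat steps of the authors are not in these counts.

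Cells with 200 to 5000 genes and under 10% mt- UMIs were kept (3171, 4692, 4301, 5106, 1713 and 1958 per library). Log-normalized cells, 3000 variable genes without the members, 30 principal components, correction between libraries with a numpy version of Harmony (theta 2, sigma 0.1), 20 neighbours and Leiden clustering at 0.6 gave 22 clusters, and 14 of ECs. A cluster was named from at least 3 markers, each 2-fold above the median of the cluster means and in 25% of its cells. Clusters of low depth or mixed leading genes were left unnamed. No doublets were removed in the main values. Counts were summed per library and population with at least 10 cells per library, passed through filterByExpr and TMM scaling, and tested in edgeR (quasi-likelihood), the p-values of each fit being adjusted across its genes by Benjamini-Hochberg. Each comparison was fitted with its own 4 libraries. Calls were set at 0.05 for the adjusted p together with more than 1.3-fold. The p-values measure the spread between 2 mice per group. Differences between populations were an interaction with the library as a block. Bounds and counting intervals (95%, exact) cover counting error only. The test script was first run on simulated counts in which 200 genes were changed. Values per library are given for each member called, for *Col4a1*, *Col4a2*, *Lama2*, *Lama4*, *Lama5*, *Lamb1*, *Lamb2*, *Lamc1* and *Itgb1* where they were highest, and for the member with the largest change in each comparison. The members and lists were chosen with earlier results of these data known. Alternatives were DESeq2, no filter on low counts, the replicate number as a block, all 6 libraries in one fit, stricter cells (at least 500 genes, under 5% mt- UMIs), likely doublets removed with Scrublet (141, 51, 215, 223, 68 and 87 cells), no correction between libraries, and each library left out. Promoter sequences and starts are from RefSeq on GRCm38.p6. R 4.3.3, edgeR 4.0.16, limma 3.58.1, DESeq2 1.42.0, Python 3.11.15, numpy 2.4.6, scipy 1.17.1, pandas 2.3.3, scikit-learn 1.9.0, igraph 0.11.9, leidenalg 0.10.2, scanpy 1.11.5 and matplotlib 3.10.9 were used.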

Additional observations from a re-analysis of the deposited data

Results flagged for a closer look

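Differences in response between populations drew attention for 16 results, each a difference of log2 fold changes against capillary-like ECs with its SE, by the edgeR interaction. At anagen against telogen, perineurial-like cells differed in *Col15a1* (1.60 ± 0.28, adjusted p = 0.023) and in *Lamb1* (1.09 ± 0.19, adjusted p = 0.023), whose log2 fold change was 0.29 in these cells and -0.79 in capillary-like ECs, neither called. In the KO, lymphatic-like ECs lay above capillary-like ECs in *Sparc* (1.88 ± 0.20, adjusted p = 9.1e-07), *Lamb1* (1.23 ± 0.20, adjusted p = 2e-04), *Col18a1* (1.12 ± 0.35, adjusted p = 0.028), *Hspg2* (1.06 ± 0.21, adjusted p = 0.00085) and *Nid1* (0.88 ± 0.19, adjusted p = 0.0021). They lay below in *Lama5* (-1.43 ± 0.22, adjusted p = 6.8e-05), *Lamc1* (-1.08 ± 0.19, adjusted p = 0.00026) and *Itga7* (-3.01 ± 1.02, adjusted p = 0.04). *Itga7* in capillary-like ECs rested on 3 UMIs at telogen and 14 in the KO. The part of free RNA in the lymphatic-like *Sparc* difference was not tested. The *Col18a1* difference was lost when 1 library was left out (adjusted p = 0.24 without telogen S1 and 0.18 without KO S1, range over the alternatives 0.0095 to 0.25). The *Nid1* difference was lost when 1 library was left out (adjusted p = 0.062 without telogen S2, range over the alternatives 0.00014 to 0.062). The *Itga7* difference was lost when 1 library was left out (adjusted p = 0.25 without telogen S1, 0.1 without telogen S2 and 0.42 without KO S1, range over the alternatives 0.0049 to 0.42).

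In the KO, perineurial-like cells lay above capillary-like ECs in *Lamb1* (2.42 ± 0.35, adjusted p = 2.3e-07), *Nid1* (0.69 ± 0.22, adjusted p = 0.036) and *Sparc* (0.64 ± 0.18, adjusted p = 0.011). They lay below in *Hspg2* (-2.43 ± 0.51, adjusted p = 0.00039), *Nid2* (-1.27 ± 0.31, adjusted p = 0.0026) and *Itga7* (-2.93 ± 0.89, adjusted p = 0.024). For *Nid2* and *Hspg2* the perineurial-like level itself was lower in the KO, and for *Lamb1* and *Nid1* it was not called. The perineurial-like level of *Hspg2* in the KO rested on few UMIs. The *Nid1* difference was lost when 1 library was left out (adjusted p = 0.59 without telogen S1, 0.68 without telogen S2 and 0.2 without KO S1, range over the alternatives 0.0029 to 0.8). The *Nid2* difference was lost when 1 library was left out (adjusted p = 0.067 without telogen S1 and 0.36 without telogen S2, range over the alternatives 3.6e-06 to 0.37). The *Sparc* difference was lost when 1 library was left out (adjusted p = 0.56 without telogen S1, 0.18 without telogen S2 and 1.0 without KO S1, range over the alternatives 9.8e-14 to 1.0). The *Itga7* difference was lost when 1 library was left out (adjusted p = 0.37 without telogen S1, 0.15 without telogen S2 and 0.49 without KO S1, range over the alternatives 0.00064 to 0.51).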

How the results depend on the processing

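Of 82 called member results, 50 remained called under every other alternative that gave them a value, 47 without each library in turn and 38 under all of these. DESeq2 gave no adjusted p for 4 of them. The direction turned in 3. *Col4a2* in artery-like ECs of the KO was 0.15 on the log2 scale with no correction between libraries, and, within clusters, a setting chosen after seeing the data, *Nid1* was -0.21 in the *Cldn11*/*Gdf10* cluster and *Lama5* 0.85 in the *Lyve1*/*Ccl21a* cluster of lymphatic-like ECs. The cause was not tested. Counts of members called at anagen against telogen moved as follows. DESeq2 gave 1 in capillary-like, 0 in lymphatic-like and 0 in perineurial-like cells. With no filter on low counts there were 2 in vein-like, 2 in capillary-like and 3 in perineurial-like cells, and 1 for the lymphatic-like difference from capillary-like ECs. All 6 libraries in one fit gave 0 in perineurial-like cells. Stricter cells gave 0 in perineurial-like cells, 0 for their difference from capillary-like ECs and 1 for that of lymphatic-like ECs. The *Lyve1*/*Ccl21a* cluster gave 0. In the KO, artery-like ECs had 4 with DESeq2, 4 with stricter cells and 5 with no correction between libraries, pericyte/vSMC-like cells had 11 with no filter, the *Lyve1*/*Ccl21a* cluster 5, and the perineurial-like difference from capillary-like ECs 3 with stricter cells. Leaving out 1 library gave, at anagen, 0 to 2 in artery-like (2 without anagen S2), 0 to 2 in vein-like (2 without anagen S1), 0 to 3 in capillary-like (3 without anagen S1), 1 to 5 in lymphatic-like (5 without anagen S1) and 1 to 1 in perineurial-like cells, 0 to 4 for the lymphatic-like and 2 to 7 for the perineurial-like difference. In the KO it gave 5 to 9 in artery-like, 4 to 6 in vein-like, 6 to 11 in capillary-like (6 without telogen S2), 9 to 13 in lymphatic-like, 6 to 10 in perineurial-like, 2 to 13 in pericyte/vSMC-like (2 without telogen S1, 3 without telogen S2, 13 without KO S2) and 8 to 13 in fibroblast-like cells, 6 to 10 for the lymphatic-like and 2 to 8 for the perineurial-like difference (2 without telogen S1 or S2). Same-numbered libraries deviated from their group means with a correlation of -0.155 to 0.16, so they share only a number. The replicate block gave 3 members in place of 1 in perineurial-like cells at anagen, and otherwise counts within 1.5 times. The differences between populations had no such fit. Members too low in some alternatives, such as *Itga9* in pericyte/vSMC-like cells, were not run there. The shallow KO sums of fibroblast-like, pericyte/vSMC-like and perineurial-like cells limit what a count of 0 can show. The population with the highest telogen level was the same for 29 members with stricter cells, 30 with likely doublets removed and 31 with no correction between libraries. *Acvrl1* in all ECs of the KO, whose mix of populations differed, was 74.5% of telogen (70.4% to 75.2% under these alternatives), while the artery-like libraries overlapped. In the KO, DESeq2 called 1 gene in place of 3 in artery-like and 4 in place of 11 in fibroblast-like cells of the other basement membrane genes, and 4 in place of 7 in perineurial-like cells of the collagen folding genes.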
